A study of Mus musculus with 2 samples.

Results

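The large chaperone genes of the mouse heart are described here, from Hsp90 and Hsp70 through the mitochondrial chaperonin and the cytosolic ring TRiC to the J-domain co-chaperones. Members were taken by name, as protein-coding genes whose symbol began with Hsp90, Hspa, Dnaja, Dnajb, Dnajc or Cct and a number, or was Hspd1, Hspe1, Hsph1 or Tcp1. By this rule 66 genes were members, of 16269 reference genes and 13766 protein-coding reference genes with a count in either library. They comprised 3 Hsp90, 11 Hsp70, 3 Hsp110, 2 Hsp60 and Hsp10, 7 TRiC, and 40 J-domain genes (4 of class A, 10 of class B and 26 of class C). A further 7 protein-coding genes of the annotation matched by name and had no count, and 3 matching genes were left out by their annotated type.

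The hearts came from male B6CASTF1/J mice, first-generation hybrids of a laboratory strain with the wild-derived CAST strain, at 14 days of age. The series holds 1 group with 2 long-read RNA sequencing libraries, replicate 1 and replicate 2, each made from 2 µg of total RNA. No treatment or mutation is named for either, and the libraries carry 1 shared donor label and mention 3 males, without saying whether tissue was pooled. The library descriptions number them as biological replicates 1 and 2, and also name the same tissue sample and cDNAs for both. The spread between them may thus be partly technical. Every p-value here rests on counting error and compares these libraries, not conditions.

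Chaperones bind unfolded protein and release it in cycles driven by ATP. Hsp70 proteins take hold of short hydrophobic stretches, J-domain proteins bring them their clients and start ATP hydrolysis, nucleotide exchange factors (the Hsp110 proteins among them) reset them, and Hsp90 receives partly folded clients from Hsp70. TRiC and the mitochondrial Hsp60 enclose a chain in a ring; in heart muscle, actin is a client of TRiC and myosin a client of Hsp90 with its partner Unc45b.

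Replicate 1 held 1059016 counts on reference genes and replicate 2 held 1064679, so that 1 count was worth 0.944 and 0.939 CPM, the count scaled to a common library total. The counts are not divided by transcript length, because a long read is counted once whatever the length of its transcript. How far recovery of a cDNA within a library depends on its length was not tested. Lengths are given where levels of genes are compared. All 8 cardiomyocyte markers were detected, with 3.67% and 3.83% of counts in replicates 1 and 2, and none of 5 testis germ cell markers was. Of the 8, 3 passed the test described below as higher in replicate 1 and 2 as higher in replicate 2. Of all tested genes, 1.65% and 1.6% were called in those directions. Other marker lists differed between the libraries: 4 atrial genes summed to 5154 counts in replicate 1, against 1278 in replicate 2, 5 red blood cell genes 18269 and 13620, 3 macrophage genes 205 and 326, 2 brown fat genes 152 and 72, and 5 thymocyte genes 1 and 78, with 4 of the 5 at 0 in replicate 1. The part of these differences in the results that follow was not tested. In tissue RNA, fewer cells of a type and less RNA per cell cannot be told apart.

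Together the 66 genes took 0.860% of the counts in replicate 1 (9103 counts, exact Clopper-Pearson 95% interval 0.842 to 0.877) and 1.03% in replicate 2 (10994 counts, 1.01 to 1.05). Both libraries held 63 of the genes. The levels were uneven: 8 genes held 57.4% of the summed CPM, 24 genes lay above 100 CPM and 13 below 10 CPM. The median member stood at 53.4 CPM, against 14.1 CPM for all detected protein-coding genes. The constitutive Hsp70 Hspa8 was the highest, followed by Hspa5, Hsp90ab1, Hspa9 and Hspd1, which between them serve the cytosol, the endoplasmic reticulum (ER) and the mitochondrion.

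**Figure D1:**
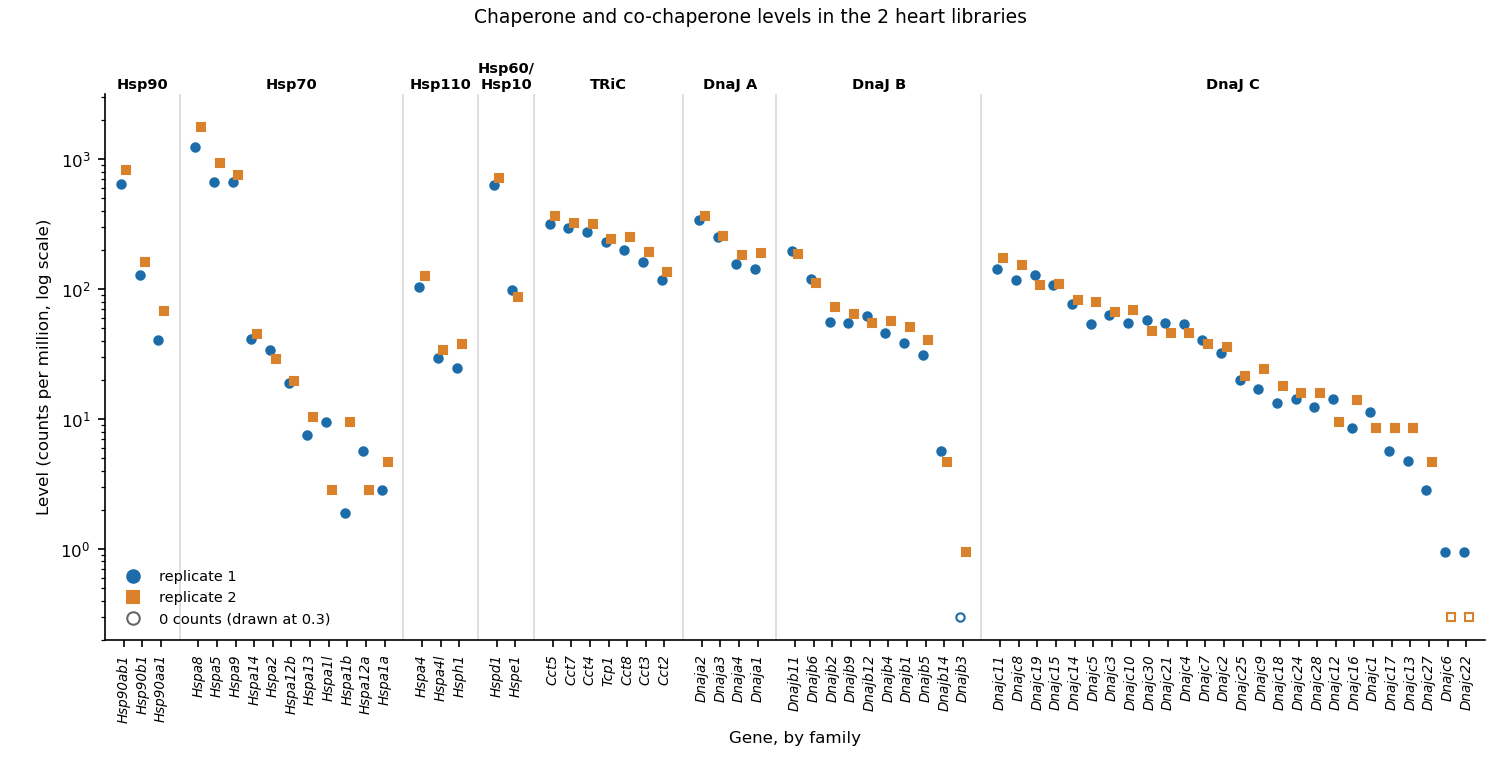
Level of each of the 66 genes in replicate 1 (blue circles) and replicate 2 (orange squares) in CPM on a log scale, ordered within each family by the mean of both libraries; open symbols mark 0 counts. Hspa8 led at 1236 and 1781 CPM, the 7 TRiC genes lay between 118 and 365 CPM, and the stress-inducible Hspa1a and Hspa1b lay below 10 CPM in both libraries.

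Among the members, Hsp90 was represented mainly by its constitutive cytosolic form. The mitochondrial Hsp90, Trap1, lies outside the name rule and was counted with the partners (284 ± 26.9 CPM). Hsp90ab1 (ENSMUSG00000023944.14, chromosome 17, 45567775 to 45573271, minus strand) had 683 counts in replicate 1 and 881 in replicate 2, or 736 ± 129 CPM (mean ± SD, n = 2, as in all such values). Its stress-inducible paralog Hsp90aa1 (chromosome 12) had 43 and 72 counts, or 54.1 ± 19.1 CPM. Counts of Hsp90ab1 exceeded those of Hsp90aa1 by 15.9 times in replicate 1 and 12.2 times in replicate 2, on dominant transcripts of 2520 and 3281 bases. Hsp90b1, the ER form known as Grp94, had 135 and 173 counts (145 ± 24.8 CPM). All 3 genes were lower in replicate 1 than in replicate 2 under each scaling tried, and Hsp90ab1 alone passed the test described below.

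The coding ends of these genes differ between the cytosolic and the ER forms and are printed for that reason. They are from the GENCODE M21 transcripts on mm10, with the last 4 codons in capitals and the stop codon after them. The cytosolic forms end in the EEVD motif, which docks co-chaperones with tetratricopeptide repeats such as Stip1 and Stub1, and the ER forms end in the KDEL retrieval signal.
Hspa8: ggccccaccattGAAGAGGTGGATtaa
Hsp90ab1: gcctcgcgcatgGAAGAGGTGGATtaa
Hsp90aa1: acatcacgcatgGAAGAAGTAGACtaa
Hspa5: gatacatcagaaAAAGATGAGTTGtag
Hsp90b1: gaatctacagagAAGGATGAATTGtaa
The 12 capital bases were the same in Hspa8 and Hsp90ab1, on chr9:40805091-40805117 (plus strand) and chr17:45568015-45568041 (minus strand). The others lie at chr12:110691540-110691566 (minus), chr2:34776087-34776113 (plus) and chr10:86691102-86691128 (minus).

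Among the 11 Hsp70 genes, 1 form per compartment carried nearly all counts. Hspa8, the constitutive cytosolic Hsc70 (ENSMUSG00000015656.17, chromosome 9, 40800984 to 40810087, plus strand), had 1309 counts in replicate 1 and 1896 in replicate 2, or 1508 ± 385 CPM, and ranked 73 among protein-coding genes. Hspa5, the ER form BiP (chromosome 2, 34771970 to 34777547), had 703 and 1003 counts (803 ± 197 CPM). Hspa9, the mitochondrial form mortalin (chromosome 18), had 707 and 799 counts (709 ± 58.6 CPM). Hspa8 and Hspa5 were the 2 Hsp70 genes past the threshold between the libraries, and Hspa9 was not (log2 ratio of replicate 1 over replicate 2 of -0.17, adjusted p = 0.287 in the exact binomial test).

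The stress-inducible cytosolic forms were near the floor. Hspa1a had 3 counts in replicate 1, against 5 in replicate 2. Hspa1b had 2 and 10. These genes are near-identical copies without introns, so the division of counts between them is uncertain, and their sum was 5 and 15 counts against 1309 and 1896 for Hspa8. Hspa1l, a form best known from testis, had 10 and 3 counts, and shares 1778 exon bases with an antisense gene on the other strand that had 0 and 1 counts. Hspa1b (adjusted p = 0.354) and Hspa1l (adjusted p = 0.436) did not pass the exact binomial test, and Hspa1a, with 8 counts in all, was not tested.

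The other Hsp70 genes stood between these extremes. Hspa2, intronless and known for its part in male germ cells, had 36 and 31 counts (31.6 ± 3.45 CPM). Hspa14, which works at the ribosome with the J-domain protein Dnajc2, had 44 and 48 counts (43.3 ± 2.50 CPM). The atypical members Hspa12b and Hspa12a had 20 and 21 counts and 6 and 3 counts, and the ER protein Hspa13 had 8 and 11. Of these 5 genes, 2 were higher and 3 lower in replicate 1.

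Of the Hsp110 genes, which are nucleotide exchange factors of Hsp70, Hspa4 was the most abundant. It had 110 counts in replicate 1 and 134 in replicate 2 (115 ± 15.5 CPM). Hspa4l had 31 and 36 counts (31.5 ± 3.21 CPM), and the inducible Hsph1 had 26 and 40 (31.1 ± 9.21 CPM). All 3 were lower in replicate 1 under each scaling tried, and none passed the test.

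The mitochondrial chaperonin Hsp60 was abundant, and its lid Hsp10 less so. Hspd1, which forms the ring (ENSMUSG00000025980.14, chromosome 1, 55077835 to 55088243, minus strand), had 665 counts in replicate 1 and 763 in replicate 2 (672 ± 62.7 CPM). Hspe1, which forms the lid, had 105 and 92 counts (92.8 ± 9.01 CPM). Hspd1 exceeded Hspe1 by 6.33 times in replicate 1 and 8.29 times in replicate 2, on dominant transcripts of 2423 and 774 bases, and how well a cDNA as short as that of Hspe1 was recovered was not tested. The genes start head to head: the first base of Hspd1-201 lies at 55088024 and that of Hspe1-201 at 55088132, with 107 bases between.

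Promoters of the members were searched for 2 motifs in the RefSeq windows of 250 bases before to 50 bases after each start (GRCm38.p6), on both strands. A window was given for 53 of the 66 genes, and the others were not searched. The heat shock element, bound by the heat shock factors, was taken as 3 triplets of TTC and GAA in alternation with any 2 bases (N) between neighbours, and the ER stress response element, bound by Atf6 with NF-Y, as CCAAT and CCACG with any 9 bases between. A heat shock element was found in 4 of the 53 genes (Hspd1, Hspe1, Dnajb6 and Hsph1) and in 0.662% of all 27025 genes (0.603% of all 32851 windows). An ER stress element was found in 3 of the 53 (Hspa5, Hsp90b1 and Dnajc3) and in 0.137% of all genes (0.119% of windows). The matches are shown with 5 flanking bases on each side and the motif in capitals, and each is printed along the strand of its gene.
Hspd1: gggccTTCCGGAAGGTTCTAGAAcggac
Hspe1: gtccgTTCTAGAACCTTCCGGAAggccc
Dnajb6: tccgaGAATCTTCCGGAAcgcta
Hspa5: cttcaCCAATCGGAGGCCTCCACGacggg
Hsp90b1, farther match: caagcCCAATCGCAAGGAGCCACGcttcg
Hsp90b1, nearer match: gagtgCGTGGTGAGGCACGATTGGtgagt
Dnajc3: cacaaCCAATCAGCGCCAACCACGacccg
The Hspd1 and Hspe1 lines are the same stretch read from either strand (chr1:55088054-55088081), which lies in the 107 bases between their starts and holds 2 overlapping matches. The other windows are chr5:29735847-29735869 (plus strand), chr2:34772020-34772048 (plus), chr10:86705633-86705661 and chr10:86705528-86705556 (minus), and chr14:118937822-118937850 (plus). Those of Dnajb6 and Hspa5 also lie inside the annotated first exon of the longer transcripts Dnajb6-201 and Hspa5-201, and that of Hspd1 inside the first exon of Hspd1-202. The match of Hsph1 lies after its start and is not printed. A match describes letters only and says nothing of binding in these hearts. A gene without a listed match may have had no window, an inexact motif or a site outside the window.

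The subunits of TRiC, which folds actin and tubulin, lay within a few-fold of each other. The assembled protein ring holds its different subunits in equal number, which RNA counts do not measure. Cct5 was the highest, at 333 counts in replicate 1 and 389 in replicate 2 (339.9 ± 36.01 CPM), then Cct7 at 313 and 346 (310.3 ± 20.8 CPM) and Cct4 at 290 and 338 (296 ± 30.8 CPM). Tcp1 followed with 246 and 261 counts, Cct8 with 212 and 266, Cct3 with 171 and 206, and Cct2 with 125 and 143 (126 ± 11.5 CPM). The highest mean was 2.69 times the lowest, and the dominant transcripts of these 7 genes ranged from 1853 to 2484 bases. In each library Cct5, Cct7 and Cct4 stood above Tcp1 and Cct8, and Cct2 stood lowest. Adjacent genes in this order overlapped between the libraries except Cct4 with Tcp1, Cct8 with Cct3, and Cct3 with Cct2. All 7 were lower in replicate 1 on library totals (6 of 7 with TMM scaling or the length trend removed, where Tcp1 lay at 0.01 and 0.03), and none passed the test.

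The remaining ubiquitous subunit gene, Cct6a, was left out of the members because GENCODE M21 gives it the type processed transcript, with 7 transcripts of which 0 are protein coding, while the RefSeq table lists it as protein coding. Cct6a (ENSMUSG00000029447.11, chromosome 5, 129786998 to 129846371, plus strand) had 189 counts in replicate 1 and 222 in replicate 2 (193 ± 21.2 CPM), between Cct8 and Cct3. No count fell on an annotated transcript. A single chain of 13 exons that the authors class as new, with splice sites outside the annotation, held 163 and 193 of the counts. It matched Cct6a-202 at every intron but 1: between exons 10 and 11 it used the intron 129794561 to 129844936 in place of 129794500 to 129844969. The donor thus lay 61 bases further on and the acceptor 33 bases earlier, adding 94 bases to the 2454 of Cct6a-202. A rarer chain with the donor 105 bases further on and the annotated acceptor held 10 and 18 counts.

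**Figure D2:**
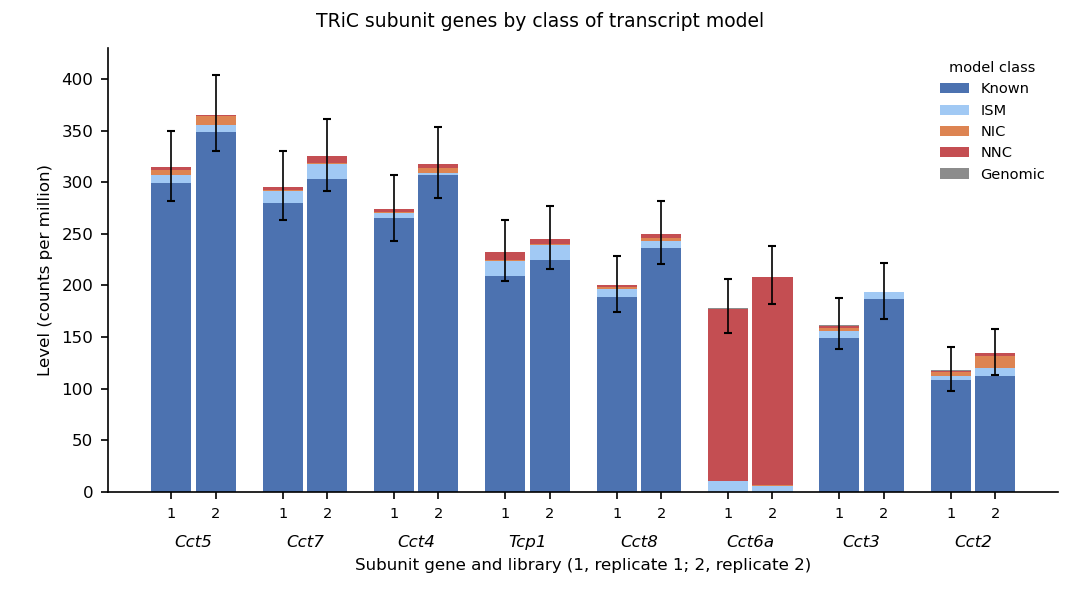
Level of each TRiC subunit gene in CPM in replicate 1 (left bar of each pair) and replicate 2 (right bar), divided by class of transcript model, with 95% Poisson counting intervals on the total. Cct6a, at 178 and 209 CPM, is the gene without any Known count; the other 7 lie mostly on Known models.

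J-domain proteins of class A, which have the full set of DnaJ domains, were led by Dnaja2. It had 362 counts in replicate 1 and 388 in replicate 2 (353 ± 15.98 CPM), and the mitochondrial Dnaja3 had 266 and 274 (254 ± 4.37 CPM). Dnaja4 had 166 and 196 counts (170.4 ± 19.3 CPM) and Dnaja1 151 and 201 (166 ± 32.7 CPM). The log2 ratio of Dnaja3 was -0.03 on library totals and 0.05 with TMM scaling, and that of Dnaja2 was -0.09 and -0.01. None of the 4 passed the test; on Known models alone Dnaja1 did (log2 ratio -0.53, adjusted p = 0.0378 in the exact binomial test).

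In class B, Dnajb11 and Dnajb6 stood highest. Dnajb11, a cofactor of BiP, had 209 counts in replicate 1 and 199 in replicate 2 (192 ± 7.38 CPM). Dnajb6, whose dominant mutations cause a limb-girdle muscular dystrophy in people, had 126 and 119 (115 ± 5.10 CPM). Dnajb1, the stress-inducible cytosolic partner of Hsp70, had 41 and 54 counts (44.7 ± 8.49 CPM). Of the other members, Dnajb2, Dnajb9, Dnajb12, Dnajb4 and Dnajb5 lay between 31.2 and 72.3 CPM in both libraries, Dnajb14 had 6 and 5 counts, and the intronless Dnajb3 had 0 and 1. Of 9 tested class B genes, 4 were higher and 5 lower in replicate 1, and none passed the test.

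Class C genes share little beyond the J domain, and none of them reached the levels of the leading class A genes. Dnajc11, of the mitochondrion, had 151 counts in replicate 1 and 185 in replicate 2 (158 ± 22.04 CPM), and the nuclear Dnajc8 had 124 and 163 (135 ± 25.5 CPM). Dnajc19 and Dnajc15, which act at the motor that pulls proteins into the mitochondrial matrix, had 137 and 115 counts (119 ± 15.1 CPM) and 113 and 116 counts (108 ± 1.59 CPM). Loss of DNAJC19 causes a dilated cardiomyopathy in people. Dnajc14 followed with 82 and 87 counts, Dnajc5, the cysteine string protein of secretory vesicles, with 57 and 84, and Dnajc3, an ER partner of BiP, with 67 and 71. At the other end Dnajc6, the auxilin of neurons, and Dnajc22 had 1 and 0 counts each. Of 23 tested class C genes, 7 were higher and 16 lower in replicate 1, with none past the threshold.

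The 7 matching genes with no count were Cct6b, a TRiC subunit of testis, Cct8l1, Dnajb13, Dnajb7, Dnajb8, Dnajc5b and Dnajc5g. A count of 0 allows up to 3 counts, or 2.83 CPM in replicate 1 and 2.82 CPM in replicate 2. Of the 3 genes left out by type, the pseudogenes Hspd1-ps3 and Dnajc19-ps had 1 count each in 1 library.

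By compartment, the 8 mitochondrial members (Hspa9, Hspd1, Hspe1, Dnaja3, Dnajc11, Dnajc15, Dnajc19 and Dnajc30) held 2205 counts in replicate 1 and 2395 in replicate 2, a ratio of 0.926 after scaling. The 11 ER members (among them Hspa5, Hsp90b1, Dnajb11, Dnajb9, Dnajc3 and Dnajc10) held 1331 and 1686 counts, a ratio of 0.794. Hspa5 alone held 703 and 1003 of these. Of the 11, 4 were higher and 7 lower in replicate 1, as against 3 and 5 of the 8 mitochondrial members. The other 47 members held 5567 and 6913 counts, a ratio of 0.810. Hspa8 alone held 1309 and 1896 of these, and of 41 tested, 7 were higher and 34 lower in replicate 1. All other protein-coding genes had a ratio of 1.00. Such sums are weighted towards the most abundant genes, and the differences between these ratios were not tested.

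Between the libraries, 60 members had the 10 summed counts needed for the exact binomial test, which was adjusted by the Benjamini-Hochberg method over all 10162 tested genes. At a threshold of 0.05, 0 members were higher in replicate 1, where 1.65% of all tested genes were, and 3 were higher in replicate 2, where 1.6% were (3.26% in either direction). Hspa8 had a log2 ratio of replicate 1 over replicate 2 of -0.53 (ratio 0.694, 95% counting interval 0.646 to 0.745, adjusted p = 7.63e-22 in the exact binomial test). Hspa5 had -0.50 (0.705, 0.639 to 0.777, adjusted p = 1.55e-10) and Hsp90ab1 -0.36 (0.779, 0.704 to 0.862, adjusted p = 9.01e-05), in the same exact test. These are the 3 members with the highest levels, where counting error is smallest.

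The other 57 members did not pass. Hsp90aa1 had the next lowest unadjusted p among the members, with a log2 ratio of -0.72 and an adjusted p of 0.165 in the exact binomial test. Of the 60, 46 were lower in replicate 1 than in replicate 2, with a median log2 ratio of -0.21; over all tested genes 5697 of 10162 were lower, with a median of -0.08. After a trend on transcript length was removed, 38 of 60 were lower (median -0.11, against 0.00 for all genes), and the same 3 genes passed, beside 1.22% and 0.886% of all genes higher in replicates 1 and 2. In the exact test of edgeR, run with a dispersion common to all genes (biological coefficient of variation 0.124), which adds the spread between the libraries to counting error, 0 of 60 members passed, as against 22 of 10162 genes (0.216%), and 1 member had an unadjusted p under 0.05. The differences of Hspa8, Hspa5 and Hsp90ab1 are thus larger than counting error, and did not pass once that spread was added. The spread was estimated from these same 2 libraries, taken as 1 group, so the differences under test also raise it. The edgeR result is therefore not an independent check of the 3 genes.

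**Figure D3:**
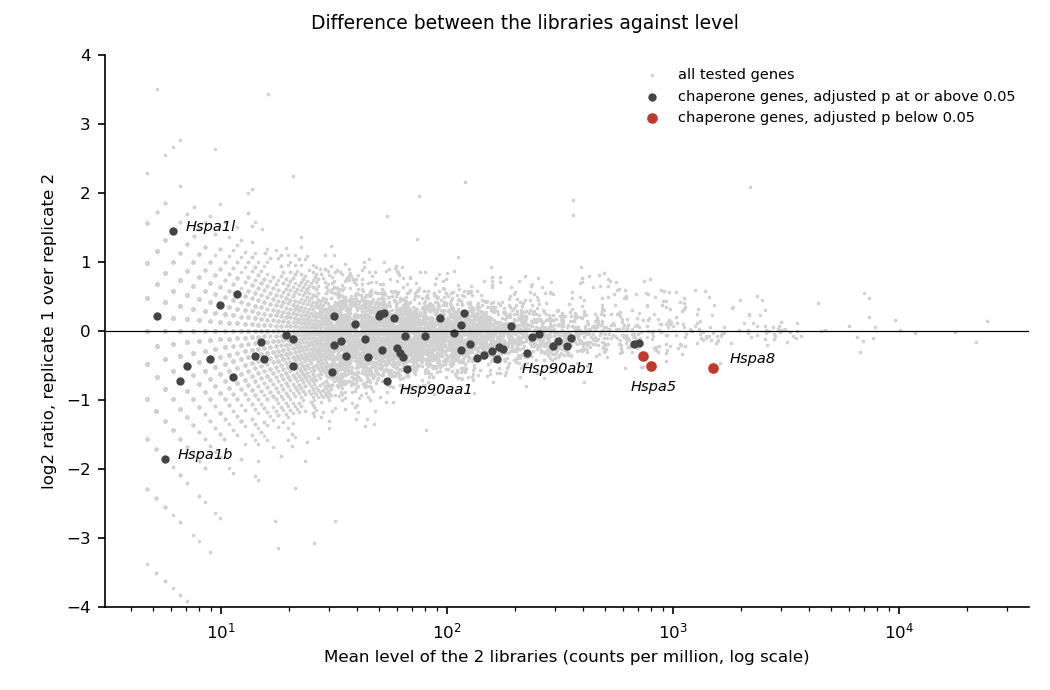
The log2 ratio of replicate 1 over replicate 2 against the mean level in CPM (log scale) for all 10162 tested genes (light grey), the 57 chaperone genes that did not pass (dark grey) and the 3 that did (red); 8 genes lie outside the axis. The 3 red points, at -0.53, -0.50 and -0.36, are also the most abundant chaperone genes, and the widest ratios among the chaperone genes, Hspa1l and Hspa1b, rest on 13 and 12 counts.

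The authors sort each transcript model into classes. Known models match an annotated transcript, incomplete splice matches (ISM) match part of one, NIC models join annotated splice sites in a new way, NNC models use a splice site outside the annotation (the classes are the authors' own), and Genomic models are largely unspliced. Of member counts, 89.6% fell on Known models in replicate 1 and 90.04% in replicate 2, against 80.6% and 80.3% for all other protein-coding genes. ISM models took 4.73% and 4.73%, most of them keeping the 3′ end (4.09% and 4.01% of all member counts). NIC models took 2.92% and 3.01%, NNC models 1.47% and 1.27%, and Genomic models 1.27% and 0.946%. Of the 60 members with at least 10 counts, 29 had at least 90% of them on Known models, 28 had 50 to 90%, and 3 had under 50% (Dnajc4, Dnajc17 and Dnajc13).

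The families differed in how their reads fell. The 7 TRiC members (94.0% and 93.9% Known) and Hsp70 (94.3% and 95.1%) lay highest. With Cct6a, left out of the members by its annotated type, TRiC had 84.6% and 84.3% Known and 10.6% and 11.0% NNC. Hsp90 had 13.4% and 13.3% of its counts on ISM models, nearly all with the 3′ end. In Hsp90ab1 these were 90 of 683 counts and 113 of 881, and the commonest of them, 26 counts in each library, began at exon boundary 45570799 and kept the last 7 exons. Hsp60 and Hsp10 together had 19.5% and 21.4% on NIC models, all but a few from Hspd1. Dnajc13, whose longest annotated transcript has 8012 bases, had 0 Known counts among 5 and 9.

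**Figure D4:**
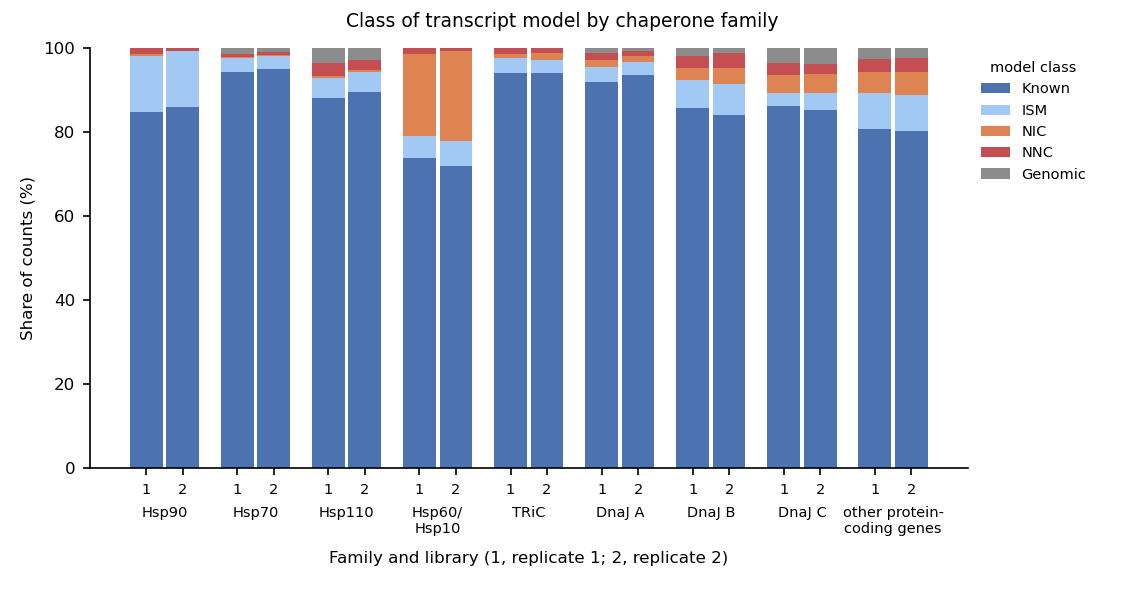
Share of counts by class of transcript model for each family and for all other protein-coding genes, in replicate 1 (left bar) and replicate 2 (right bar). The NIC share of the Hsp60 and Hsp10 pair, at 19.5% and 21.4%, comes from Hspd1. Hsp70 and TRiC, drawn without Cct6a, have 93.9% or more of their counts on Known models.

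Of 142 new multi-exon chains of members seen in both libraries (97 ISM, 26 NIC and 19 NNC, in 40 genes), that of Hspd1 was the most abundant. It held 142 counts in replicate 1 and 173 in replicate 2, beside 464 and 522 on the annotated Hspd1-201. Both begin at 55088024 and have 12 exons, but the new chain ended its first exon after 36 bases in place of 246 and spliced from there through the intron 55086942 to 55087988. That donor is annotated in Hspd1-202, a 5-exon transcript with 0 counts in either library. Of junctions into exon 2, 146 of 622 used the far donor in replicate 1 (23.5%, exact Clopper-Pearson interval 20.2 to 27.0) and 177 of 713 in replicate 2 (24.8%, 21.7 to 28.2). The intervals overlap. The annotated coding sequence starts at 55086939 in exon 2, so both first exons are untranslated.

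In Dnajc4, a class C gene, the new chain outnumbered the annotated ones. A chain with an added first exon of 24 bases (6992549 to 6992572 on chromosome 19, minus strand) held 28 and 24 counts, against 11 and 8 on Dnajc4-201 and 12 and 9 on all Known models. Its first intron, 6992273 to 6992548, is outside the annotation, as is 1 of its splice sites, although the authors class the chain as NIC. The intron removes the first 29 coding bases of Dnajc4-201, the annotated start codon among them. Smaller new chains appeared in Cct2 (4 and 10 counts) and Dnajb6 (7 and 6 counts). That of Dnajb6 skipped an exon of 321 bases through the intron 29766396 to 29785030. Chains that kept only the 3′ part of an annotated transcript included Hspa8 with 15 and 12 counts, Hspa5 with 9 and 8, and Tcp1 with 7 and 6.

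Several members were read as a pair of annotated transcripts in a steady proportion. Hspa5-201 (3672 bases) had 514 of 669 annotated counts in replicate 1 (76.8%) and 723 of 973 in replicate 2 (74.3%), and Hspa5-202 (2613 bases) had 152 and 249. Both code for the same 655 residues. Hspa5-201 has 9 exons and Hspa5-202 has 8, and as annotated the longer one runs 1016 bases further at its 3′ end. The first intron of Hspa5-201, 34772147 to 34772228, held 516 and 728 junction counts in replicates 1 and 2. Where the 3′ ends of the reads lay was not tested. Dnaja3-202, the 453-codon form, had 185 of 245 counts in replicate 1 (75.5%) and 203 of 254 in replicate 2 (79.9%); the 480-codon form Dnaja3-201, which includes an exon of 117 bases, had 60 (24.5%) and 50 (19.7%). In Dnajb6 the 365-codon form had 69 and 59 counts, and the 242-codon form, which stops in an early last exon of 779 bases, had 36 (34.3%) and 30 (33.3%). The short form is the cytosolic one in humans and the long form is nuclear.

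Among the smaller genes, Dnajb12 divided its counts over 3 transcripts of 378 and 376 codons, Dnajb12-205 with 23 and 21, Dnajb12-204 with 20 and 14 and Dnajb12-201 with 12 and 8. Dnajb2-207 and Dnajb2-202, of 277 codons, had 13 and 28 and 13 and 15 counts, and the 324-codon Dnajb2-210 had 6 and 7. In Dnajb5 an annotated intron-retaining transcript without a coding sequence, Dnajb5-206, had 14 and 14 counts and the coding Dnajb5-203 had 9 and 13. Dnajc19 was read almost wholly as the 116-codon Dnajc19-202 (122 of 130 and 103 of 109 counts). In Tcp1 the transcript Tcp1-209 took 95.9% and 97.1% of annotated counts. Over all members, annotated transcripts of the protein-coding type held 8116 and 9868 counts, retained-intron types 19 and 22, and nonsense-mediated decay types 13 and 6.

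**Figure D5:**
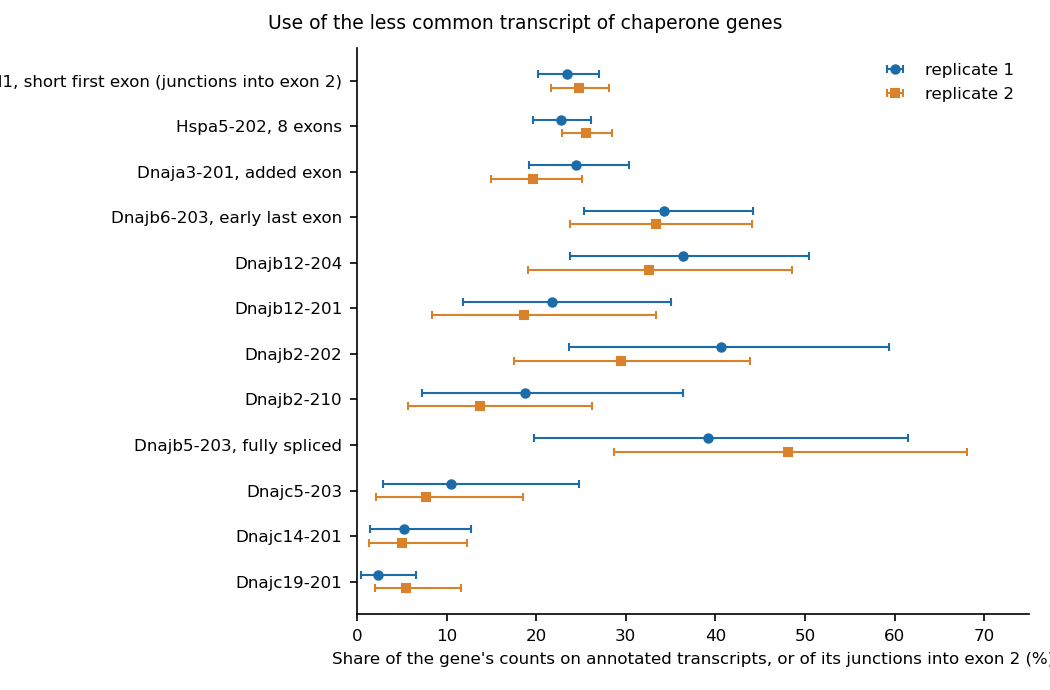
Share of the less common transcript of 10 members with exact 95% Clopper-Pearson intervals, in replicate 1 (blue circles) and replicate 2 (orange squares); for Hspd1 the share is of junctions into exon 2, for the others of counts on annotated transcripts. The intervals of the libraries overlap for each of the 12 shares drawn, and that of Hspd1, at 23.5% and 24.8%, is among the narrowest.

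No difference in these proportions passed a test between the libraries. In a two-sided exact Fisher test of the dominant annotated transcript, 0 of 25 tested members passed, as against 1 of 2633 genes (0.038%), and no member had an unadjusted p under 0.05. In the same exact Fisher test of the Known share, 0 of 47 members passed, beside 0.193% of 5693 genes. The 1 member with an unadjusted p under 0.05 was Dnaja1, with 134 of 151 counts on Known models in replicate 1 (88.7%) and 194 of 201 in replicate 2 (96.5%, exact Fisher p = 0.00515, adjusted p = 0.586). Below the 20 counts needed for the test on annotated transcripts lay Dnajc25, chosen here after its values were seen: its nonsense-mediated decay transcript Dnajc25-205 had 7 of 18 annotated counts in replicate 1 (38.9%, exact Clopper-Pearson interval 17.3 to 64.3) and 0 of 21 in replicate 2 (0 to 16.1). These intervals do not overlap, and the difference was not tested.

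Exon bases were shared with another detected gene in 19 members, in 17 of them with a gene on the opposite strand. Dnaja4 shares 1581 bases with Wdr61 (62 and 58 counts) and Dnajc14 shares 1114 with Ormdl2 (12 and 26). Whether the counting used strand is not given in the sources used here, so unspliced reads of such pairs are uncertain.

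The partners of these chaperones were counted from 6 lists. The list drawn up for Hsp90 co-chaperones held 21 genes, not all of them co-chaperones: Trap1 (281 and 323 counts) is the mitochondrial Hsp90 itself. Of the 21, 0 were higher in replicate 1, 2 were higher in replicate 2 and 19 did not pass. Of all tested genes, 1.65% and 1.6% were called in those directions. The most abundant were Fkbp4 (570 and 685 counts), Fkbp8 (440 and 444) and Cdc37 (323 and 367), which brings kinases to Hsp90. Past the threshold were Unc45b, the myosin-folding co-chaperone of striated muscle, with 207 and 293 counts (log2 ratio -0.49, adjusted p = 0.00889 in the exact binomial test), and Chordc1, with 93 and 151 (-0.69, adjusted p = 0.0120 in the same exact test). With the length trend removed neither passed (adjusted p = 0.185 and 0.204), and with TMM scaling Unc45b did not (0.0516).

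None of 12 genes listed as nucleotide exchange factors of Hsp70 passed. St13 in that list (91 and 130 counts) is a co-chaperone of Hsp70 but not an exchange factor. Bag1 had 412 counts in replicate 1 and 414 in replicate 2, the mitochondrial Grpel1 406 and 414, and Bag3, which is known for maintaining the Z-disc of muscle, 271 and 289. The log2 ratios of these 3 were 0.00, -0.02 and -0.08. Nor did any of 8 detected prefoldin and phosducin-like partners of TRiC pass on library totals, led by Vbp1 (127 and 145), Pfdn5 (135 and 91) and Pfdn1 (108 and 107); with TMM scaling Pfdn5 did (adjusted p = 0.0247 in the exact binomial test).

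Of the heat shock factors, Hsf1 had 67 and 79 counts, Hsf2 15 and 12, and the small binding protein Hsbp1 288 and 257, with none past the threshold. Of 8 mitochondrial proteases and disaggregases 1 passed, as higher in replicate 2, beside 1.6% of all tested genes. Lonp1 had 261 and 345 counts (log2 ratio -0.39, adjusted p = 0.0318 in the exact binomial test). It did not pass with the length trend removed (0.349), TMM scaling (0.162), DESeq2 size factors (0.0794) or no minimum count (0.0509). Clpx (342 and 343 counts) and Afg3l2 (327 and 338) were level between the libraries.

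The list drawn up for lectin chaperones and disulphide isomerases of the ER also held Manf and Sel1l, which are neither. Of its 9 tested genes, 0 passed as higher in replicate 1 and 3 as higher in replicate 2, beside 1.65% and 1.6% of all tested genes. All 9 had lower levels in replicate 1, as did 56.1% of all tested genes, with 1033 against 1438 summed counts over the 10 genes and a median log2 ratio of -0.58. Past the threshold were Pdia6 (173 and 301 counts, log2 ratio -0.79), Pdia3 (129 and 199, -0.61) and Creld2 (26 and 57, -1.09), and 6 did not pass. The most abundant, P4hb, had 400 and 479 counts and did not pass (adjusted p = 0.184 in the exact binomial test). With the length trend removed Pdia6 and Creld2 passed and Pdia3 did not (adjusted p = 0.0797 in the same exact test); Creld2 did not pass with TMM scaling (0.0558) or no minimum count (0.0515). The list was chosen with earlier results of these data known, and edgeR's exact test called 0 of all 6 lists.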

How the data were processed

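The authors deposited whole-number counts per transcript model for each library, and per the file headers each model carries a gene, a novelty class and a reference identifier; builds and annotation are mm10 and GENCODE M21 per the labels, and the aligner is not given in the sources used here. Models were summed per gene, leaving out spike-ins (1.72% and 1.25% of all counts in replicates 1 and 2) and genes absent from the annotation (2.68% and 2.89%), and scaled to CPM on the reference total. Genes with a summed count of at least 10 entered a two-sided exact conditional binomial test (scipy 1.17.1) with Benjamini-Hochberg adjustment (computed with numpy 2.4.6). The trend on transcript length was fitted with statsmodels 0.14.6. Transcript and Known shares were compared by exact Fisher tests, on genes with at least 20 counts in each library. Ratios are replicate 1 over replicate 2. Alternatives used edgeR 4.0.16 and DESeq2 1.42.0 (R 4.3.3), and the tests were tried on simulated data first. Intervals and floors cover counting error only, since cDNA reads lacking molecular tags need not be separate molecules. Named were all Hsp90, Hsp70, Hsp110, Hsp60, Hsp10 and TRiC members, the 10 highest J-domain genes, members past a threshold, the 8 most abundant new chains and, per partner list, the 3 highest and those past the threshold; further J-domain genes and transcripts were named after their values were seen. The members and lists were chosen with earlier results of these data known.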

Additional observations from a re-analysis of the deposited data

Results flagged for a closer look

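Counts outside the reference genes appeared on new genes placed antisense to 27 of the chaperone genes, and for 5 of these they were above 3 counts in both libraries. Antisense to Dnajc18 there were 22 counts in replicate 1 and 12 in replicate 2, beside 14 and 19 counts on Dnajc18 itself. Antisense to Hspa12a there were 9 and 10 counts, beside 6 and 3 on Hspa12a. Antisense to Dnajb6 there were 5 and 7 counts, and antisense to Hsp90b1 and to Hspa4 there were 6 and 5 counts each. A count of 0 allows up to 3 counts. The other 22 genes did not exceed this limit in both libraries; among them Dnaja1 had 2 and 7 antisense counts and Dnajc7 had 3 and 4. Whether the libraries keep strand is not given in the sources used here.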

How the results depend on the processing

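The count of 3 chaperone genes that differed was also 3 with TMM scaling, DESeq2 size factors, no minimum count, models of at least 2 counts and the length trend removed, 4 on Known models alone, and 0 (0 higher in replicate 2) in edgeR's exact test with common dispersion. Of the 6 partner genes, all higher in replicate 2, 0 passed in edgeR's exact test (0 higher in replicate 2), 2 with the length trend removed (2 higher in replicate 2), and with TMM scaling 1 was higher in replicate 1 and 3 in replicate 2. With models of at least 2 counts, the spread of the TRiC subunits was 2.85 and the Known share 92.3%; with ISM models added to Known ones that share was 94.6%. At 3 counts in each library, 42 new chains were left of 142. Taking each library alone, the summed level ranged from 0.860% to 1.03%, the TRiC spread from 2.66 to 2.72 and the Known share from 89.6% to 90.04%. No direction of a gene that passed was turned by these alternatives; the signs of 12 of the 60 tested members, none of which passed, changed under at least 1, among them Dnaja2, Dnaja3, Dnajc3, Dnajc14, Dnajc15, Hspa12b and Tcp1. On Known models the spread over all 8 subunits could not be given, since Cct6a has none, and over 7 it was 2.93. No paired analysis was possible because the series holds 1 group. The 2 libraries are numbered as biological replicates, but their descriptions name the same tissue sample and cDNAs. Whether they share RNA was not tested, so spread between animals is not measured apart from technical spread.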
